A study of Homo sapiens with 8 samples.

Results

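The kinesin family was examined in RNA-seq data of 8 libraries of Hep3B cells, an established human hepatocellular carcinoma line. The family was taken as every gene of the deposited tables whose symbol is KIF or KIFC followed by its number and letter, with the transcript rows of each gene summed. It was selected on the value of KIF1A in the SOX4 knockout comparison, 1 of the largest falls there, where only 17 of 14415 tested genes had a lower log2 fold change. The values of KIF1A in that comparison are therefore a description without a test, and the other kinesins entered by their symbol alone. The tables hold 39 of the kinesin genes among 16169 genes in all, 39 of 16040 in the table of the knockout experiment and 38 of 14955 in the table of the siRNA experiment.

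The 4 conditions held 2 libraries each. Hep3B cells, wild type for SOX4, were compared with Hep3B cells labelled SOX4-/-, and Hep3B cells given a scramble siRNA with Hep3B cells given a STAT6 siRNA. The knockout was made by CRISPR in a pair of lines, and the labels do not state whether libraries 1 and 2 are those lines. In the study's methods the knockout cells were kept in puromycin, so that selection and knockout cannot be told apart. Nothing in the labels says that the 2 libraries of a condition came from separate cultures, so the p-values measure the spread between these libraries, which may be technical. Totals ranged from 16266282 to 25353113 expected counts per library.

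Levels are given as CPM (counts scaled to the size of each library, with TMM factors over all 8 libraries), in the order library 1 and library 2. SOX4 stood at 733 and 250 in Hep3B and at 261 and 273 in the libraries labelled SOX4 knockout, so its transcript did not separate these groups (log2 fold change −0.83, edgeR adjusted p = 0.372). An edit can leave the transcript in place, so this value does not check the label. STAT6 stood at 46.2 and 34.0 with scramble siRNA and at 11.3 and 6.50 with STAT6 siRNA (log2 fold change −2.22, edgeR adjusted p = 1.00, where no gene passed), without overlap. In the knockout experiment STAT6 stood at 29.3 and 12.4 in Hep3B and at 2.42 and 1.99 in the libraries labelled SOX4 knockout (log2 fold change −3.18, edgeR adjusted p = 0.0275). The STAT6 transcript was thus lower in the treated libraries of both experiments. The hepatocyte markers were present in every library, with a summed level between 12621 and 50027 CPM.

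Kinesins are motor proteins that use ATP to move along microtubules, or in a few cases to shorten them. Cargo kinesins of the kinesin-1, kinesin-2 and kinesin-3 groups carry vesicles, mitochondria and other organelles toward the cell surface, and in neurons along the axon. Mitotic kinesins build and shorten the spindle and are made mainly by dividing cells. KIF1A is a kinesin-3 motor known for carrying synaptic vesicle precursors and dense-core vesicles in neurons. The members were divided into 13 cargo transport kinesins, 13 mitotic kinesins and 13 other kinesins, the last holding cilium, regulatory and less studied motors.

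The start regions of the members are shown for KIF1A, for KIF5C, which had the next lowest log2 fold change in the knockout, for KIF12, which had the highest of the group of other kinesins, and for KIFC1 as an example of a mitotic kinesin. RefSeq windows on GRCh38.p14, each reaching from 250 bases before a gene's start to 50 after it, were found for 32 of the 39 members. Capitals mark the motifs searched on both strands: ACAAAG as a SOX core, TTCNNNNGAA as a STAT site, TTTGAA as the CHR element of cell cycle genes and CCAAT. The last letters of a STAT site can overlap a CHR element. KIF1A lies on the minus strand of chromosome 2 at chr2:240713764-240820309 (hg38), and no other GENCODE gene overlapped it on the opposite strand. Its window around the deposited start at position 240820309 held no match. The SOX core stood in a window further upstream that contained no deposited start, and the window furthest upstream, not shown, held no match. No window covered the other deposited start of KIF1A, at position 240797813, so that start was not searched.

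KIF1A, chr2:240820170-240820469, minus strand: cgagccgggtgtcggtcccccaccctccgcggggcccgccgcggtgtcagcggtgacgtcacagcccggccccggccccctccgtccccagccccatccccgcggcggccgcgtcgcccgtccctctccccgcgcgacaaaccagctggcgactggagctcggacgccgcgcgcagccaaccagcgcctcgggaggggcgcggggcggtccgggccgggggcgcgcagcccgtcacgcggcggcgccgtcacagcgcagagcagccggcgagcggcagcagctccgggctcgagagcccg
KIF1A, chr2:240820990-240821289, minus strand: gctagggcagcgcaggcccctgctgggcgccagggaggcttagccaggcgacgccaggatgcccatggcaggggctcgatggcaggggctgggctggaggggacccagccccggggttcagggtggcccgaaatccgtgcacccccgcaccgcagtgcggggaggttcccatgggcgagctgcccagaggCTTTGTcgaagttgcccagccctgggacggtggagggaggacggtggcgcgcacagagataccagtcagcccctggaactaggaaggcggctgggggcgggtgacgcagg
KIF5C, chr2:148874977-148875276, plus strand: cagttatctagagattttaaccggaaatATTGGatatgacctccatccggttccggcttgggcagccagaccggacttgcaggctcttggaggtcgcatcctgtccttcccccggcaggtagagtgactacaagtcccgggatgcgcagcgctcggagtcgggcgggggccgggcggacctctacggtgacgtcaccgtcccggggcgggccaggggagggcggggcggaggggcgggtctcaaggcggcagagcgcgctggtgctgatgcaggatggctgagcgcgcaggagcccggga
KIF12, chr9:114099017-114099316, minus strand: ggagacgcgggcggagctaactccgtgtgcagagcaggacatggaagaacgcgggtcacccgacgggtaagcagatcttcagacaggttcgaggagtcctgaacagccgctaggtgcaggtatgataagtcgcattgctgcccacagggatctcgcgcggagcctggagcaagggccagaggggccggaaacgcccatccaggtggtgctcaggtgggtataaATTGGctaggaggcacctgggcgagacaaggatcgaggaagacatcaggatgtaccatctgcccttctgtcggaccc
KIFC1, chr6:33391573-33391872, plus strand: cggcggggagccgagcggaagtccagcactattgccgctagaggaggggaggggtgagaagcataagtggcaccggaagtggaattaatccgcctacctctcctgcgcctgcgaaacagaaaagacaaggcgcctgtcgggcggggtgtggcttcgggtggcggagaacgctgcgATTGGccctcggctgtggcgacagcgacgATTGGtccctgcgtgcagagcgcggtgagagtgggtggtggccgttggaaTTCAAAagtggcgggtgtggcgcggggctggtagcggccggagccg

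The windows of the mitotic kinesins shared a sequence feature that the cargo kinesins largely lacked. The CHR letters stood in a window of 10 of the 13 mitotic kinesins, of 1 of 11 cargo transport kinesins (KIF5B) and of 0 of 8 other kinesins, against 18.2% of 27305 genes and 15.2% of 35116 windows. CCAAT stood in a window of 11 of 13 mitotic, 4 of 11 cargo and 3 of 8 other kinesins, against 39.7% of genes and 34.6% of windows. The SOX core stood in 1 of 11 cargo kinesins (KIF1A), 2 of 13 mitotic kinesins (KIF18B and KIF20A) and 1 of 8 others (KIF21A), against 19.0% of genes and 16.1% of windows. The STAT letters stood in KIF24 alone of the 32 members, against 7.80% of genes and 6.44% of windows. These matches are letters in a window and not measured sites of binding.

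KIF1A was well expressed in 3 conditions and was nearly lost in the libraries labelled SOX4 knockout. Its level was 217 and 448 CPM in Hep3B, and 3.21 and 5.72 CPM in the libraries labelled SOX4 knockout. With scramble siRNA it was 326 and 333 CPM, and with STAT6 siRNA 457 and 285 CPM. The knockout libraries lay far below all the others, and the other 6 overlapped across conditions. In order of the mean, STAT6 siRNA stood at 371 ± 122 CPM (SD, n = 2), Hep3B at 333 ± 163, scramble siRNA at 329 ± 4.91 and the knockout at 4.47 ± 1.77. The top 3 of this order differed by less than their spread. Hep3B and siRNA libraries come from separate tables, so an order across tables also holds any difference between the experiments.

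Against Hep3B, KIF1A was 71.6-fold lower in the libraries labelled SOX4 knockout (log2 fold change −6.16, SE 0.58). This contrast was what brought the gene into view, and no test is given for it. The low values rested on 97 and 115 expected counts, against 4176 and 9040 in Hep3B, so the transcript was scarce and not absent. Over 13 alternative analyses the log2 fold change of KIF1A ranged from −6.64 to −5.58.

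No change of KIF1A beyond the spread of the libraries was measured with STAT6 siRNA. Its log2 fold change against scramble siRNA was 0.12 (SE 0.55, edgeR adjusted p = 1.00). Between like-numbered libraries KIF1A was higher by 0.49 in the libraries numbered 1 and lower, at −0.23, in those numbered 2. The sign also turned to −0.20 with GC and length offsets, and to −0.21 without STAT6 siRNA library 1. The effects on KIF1A in the 2 experiments differed by −6.41 on the log2 scale (SE 0.82), a value that contains the contrast used to choose it.

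**Figure D1:**
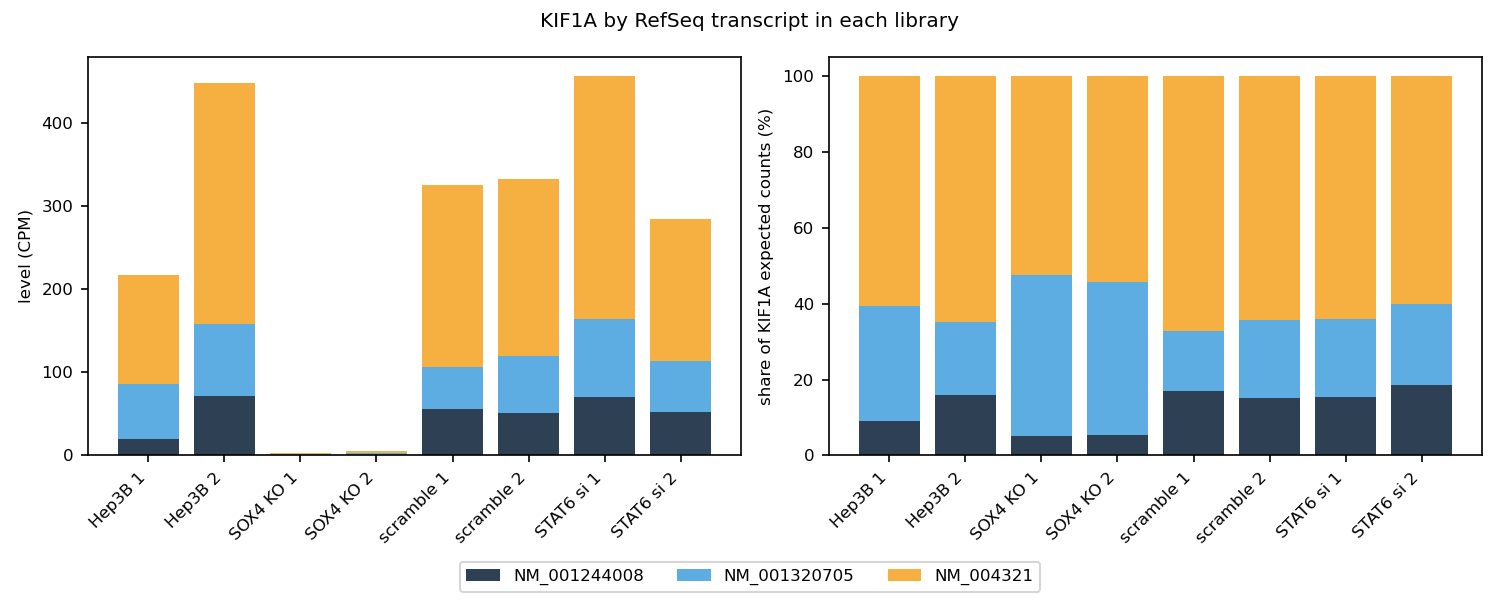
KIF1A by RefSeq transcript in each library, as level in CPM (left) and as share of the gene's expected counts in percent (right). NM_004321 is the largest part in every library, and its share in the knockout libraries is 52.6% and 54.2%.

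All 3 deposited KIF1A transcripts were low in the knockout libraries. NM_004321, which starts inside the gene at position 240797813, stood at 132 and 290 CPM in Hep3B and at 1.69 and 3.10 CPM in the knockout. NM_001320705, which starts at position 240820309, stood at 66.4 and 86.8 CPM in Hep3B and at 1.36 and 2.30 CPM in the knockout. NM_001244008, with the same start, stood at 19.5 and 70.9 CPM in Hep3B and at 0.167 and 0.312 CPM in the knockout. Transcripts of both starts were thus low in the knockout. The share of NM_001320705 was 42.2% and 40.3% in the knockout libraries and lay between 15.7% and 30.5% in the other 6. The split of reads between overlapping transcripts is an estimate, and the knockout shares rest on few counts.

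No gene around KIF1A passed the test as lower. Within 1 Mb on either side, 28 genes were tested in the knockout comparison, 0 passed the test as lower and 2 as higher (C2orf54 and NEU4), where 5.89% of all 14415 tested genes passed edgeR's adjusted p of 0.05. Their median log2 fold change was 0.19, and the lowest was −0.77. GPR35, the nearest gene of the table on the 3′ side of KIF1A, stood at 91.1 and 24.9 CPM in Hep3B and at 56.8 and 47.4 CPM in the knockout. AGXT, the nearest on its 5′ side, stood at 0.521 and 0.248 CPM in Hep3B and at 2.25 and 2.24 CPM in the knockout.

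With KIF1A set aside, 0 of the other 36 tested kinesins passed an adjusted p of 0.05 in the knockout comparison with edgeR, beside 5.89% of all genes. At an unadjusted p of 0.05, 5 of 36 (13.9%) passed, namely KIFC2, KIF5C, KIF12, KIF5A and KIF1C, beside 26.0% of all genes. Of the 5, KIF5A entered the test only through its knockout libraries. DESeq2 called 3 of 36, KIF5C, KIFC2 and KIF12, beside 15.0% of all genes. Both knockout libraries lay above both Hep3B libraries for 6 of these kinesins and below for 7, beside 30.7% and 27.3% of all genes. The kinesins were thus called no more often than genes in general. Without Hep3B library 1, edgeR called 4 of them (KIF5C, KIFC2, KIF12 and KIFC3), without Hep3B library 2 only KIFC2, and without either knockout library 0.

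The kinesin-1 heavy chains are the classic motors of axonal transport, and none of the 3 passed the test. KIF5B, the form made in most tissues, stood at 173 and 198 CPM in Hep3B and at 152 and 90.6 CPM in the knockout. With scramble siRNA it stood at 15.2 and 78.8 CPM and with STAT6 siRNA at 19.0 and 53.1 CPM. Both knockout libraries of KIF5B were below both Hep3B libraries and did not pass the test, and the siRNA libraries numbered 1 were the lowest. KIF5C, a form known from neurons, stood at 5.26 and 8.18 CPM in Hep3B and at 0.928 and 1.39 CPM in the knockout. It was 5.56-fold lower (log2 fold change −2.48, SE 0.59, edgeR adjusted p = 0.0517), which missed the threshold. It passed in 4 of 13 alternatives, DESeq2 among them (adjusted p = 0.00132). In the siRNA table KIF5C had only 4 to 12 counts per library and was not tested.

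KIF5A, the other neuronal form, pointed the opposite way at very low levels. It stood at 0.260 and 0.149 CPM in Hep3B, from 5 and 3 counts, and at 1.96 and 0.895 CPM in the knockout, from 59 and 18 counts. Its log2 fold change was 2.85 (SE 0.84, edgeR adjusted p = 0.0873) and it passed in 0 of 12 alternatives. It passed the filter on low counts only through the knockout libraries, so a fall could not have been tested. In the siRNA table it had 2 to 5 counts per library and was not tested. KIF5C, KIF5A, KIFC2 and KIF12 were singled out after their values were seen.

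None of the kinesin-3 relatives of KIF1A passed the test. KIF1C is a widely made kinesin-3 that moves vesicles between the Golgi and the cell edge. Its mean level per length over all libraries was 58.9 CPM per kb, the highest of the kinesins, though not the highest in every library. In Hep3B it was 28.9 and 27.5 CPM per kb, against 25.2 and 51.9 for KIF1A. Higher than KIF1C in Hep3B library 1 were KIFC3 (40.4), KIF13A (34.9), KIF3B (31.3) and KIF5B (29.4). Higher in Hep3B library 2 were KIF1A, KIF22 (39.0), KIF5B (33.6) and KIFC1 (28.6). In library 1 of scramble and of STAT6 siRNA KIF1C was at 80.7 and 127 CPM per kb, against 104 and 141 for KIF22. KIF1C stood at 229 and 218 CPM in Hep3B, 354 and 440 in the knockout, 639 and 394 with scramble siRNA and 1002 and 454 with STAT6 siRNA. Both knockout libraries lay above both Hep3B libraries, and the log2 fold change of 0.89 (SE 0.37, edgeR adjusted p = 0.179) did not pass the test. KIF1B, which carries mitochondria and vesicles, stood at 91.9 and 175 CPM in Hep3B and at 108 and 85.2 CPM in the knockout, and the groups overlapped. KIF13A, a carrier of endosomal and melanosome cargo, stood at 230 and 91.6 CPM in Hep3B and at 177 and 168 CPM in the knockout, inside the Hep3B range. With scramble siRNA KIF13A stood at 73.1 and 209 CPM and with STAT6 siRNA at 66.0 and 177 CPM, so library 1 was low in both. KIF13B stood at 97.5 and 73.5 CPM in Hep3B and at 59.9 and 56.7 CPM in the knockout, which did not overlap and did not pass the test. With scramble siRNA KIF13B stood at 127 and 219 CPM and with STAT6 siRNA at 131 and 210 CPM. KIF16B, an endosomal motor, had a mean of 9.87 CPM over all libraries and did not pass the test.

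The kinesin-2 motors, which serve cilia and late endosomes, were led per length by KIF3B, with a mean of 22.8 CPM per kb over all libraries. KIF3B stood at 191 and 152 CPM in Hep3B and at 133 and 166 CPM in the knockout, and the groups overlapped. With scramble siRNA it stood at 70.8 and 178 CPM and with STAT6 siRNA at 65.04 and 159 CPM. KIF3C stood at 15.0 and 15.0 CPM in Hep3B and at 20.7 and 24.8 CPM in the knockout. KIF3A and KIF17 had mean levels over all libraries of 5.68 and 1.30 CPM. None of these passed the test.

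**Figure D2:**
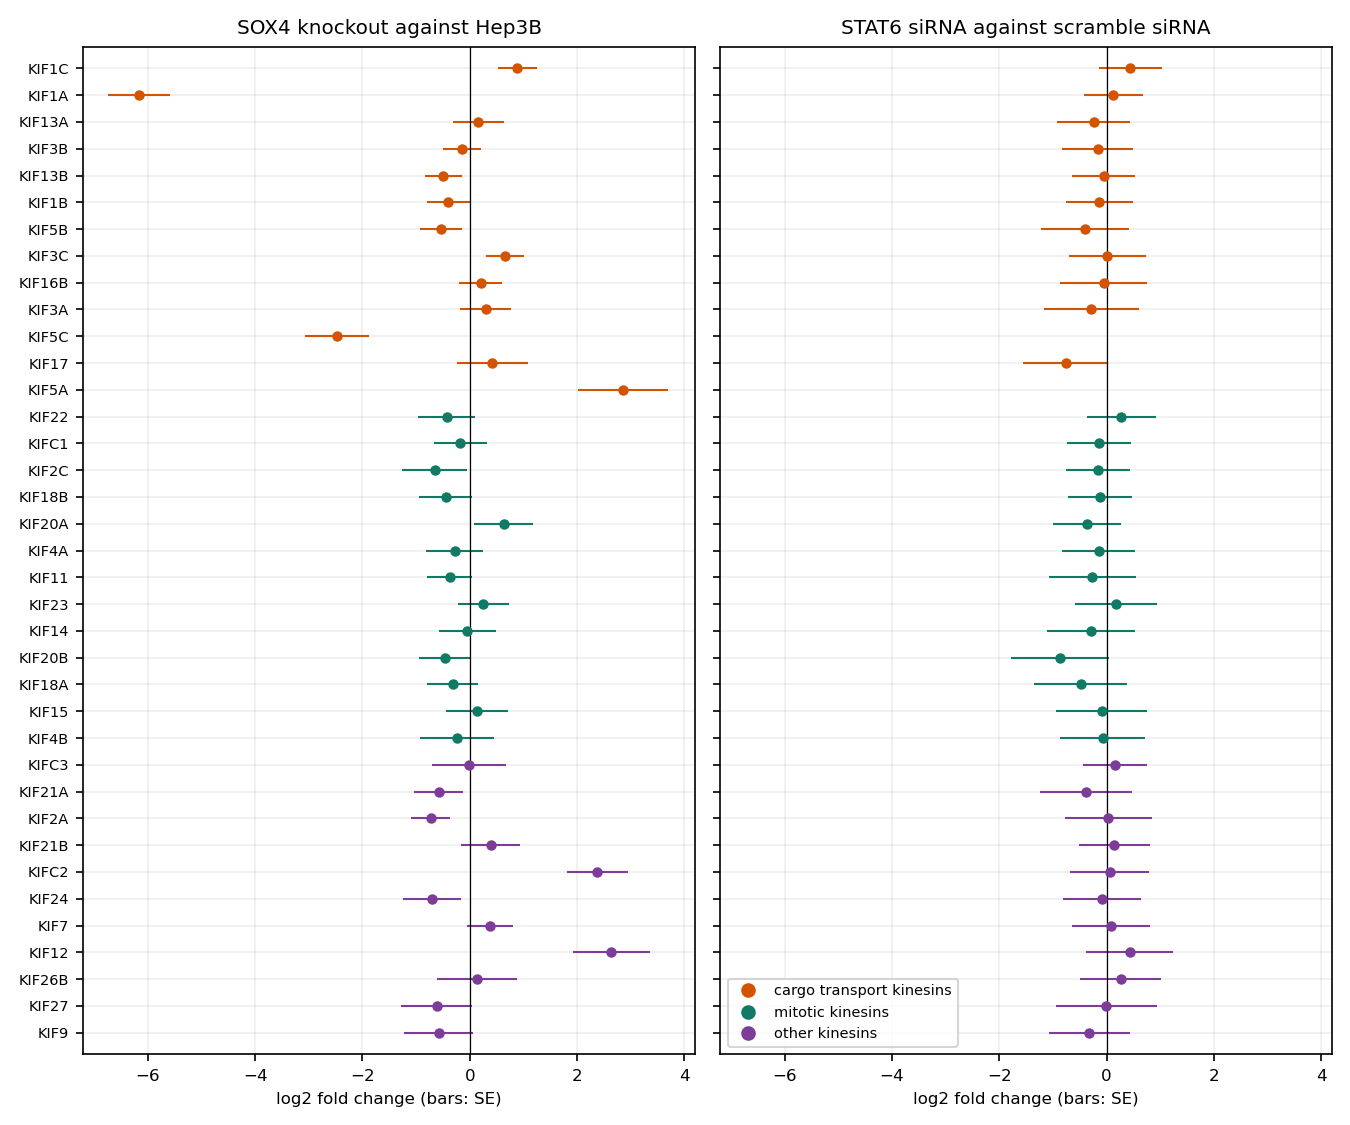
Fitted log2 fold change of each tested kinesin (points, with bars for the approximate SE) in the SOX4 knockout (left) and in STAT6 siRNA (right), coloured by role. KIF1A at −6.16 is the lowest point on the left, KIF5C, KIF5A, KIFC2 and KIF12 lie beyond 2 in size, and every point on the right lies between −0.87 and 0.44.

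No mitotic kinesin passed the test in the knockout comparison, with edgeR or DESeq2, and 0 of 13 had an unadjusted p below 0.05. Of the 13, 10 lay below zero, with individual log2 fold changes from −0.66 to 0.63. Their median was −0.28, against 0.0082 for all genes and 0.18 for the cargo transport kinesins without KIF1A. It turned to 0.16 without Hep3B library 2 and to 0.085 without knockout library 1, and was −0.67 without Hep3B library 1 and −0.54 without knockout library 2. KIF22, a chromosome-arm motor, stood at 37.9 and 82.7 CPM in Hep3B and at 24.5 and 61.5 CPM in the knockout. With scramble siRNA it stood at 221 and 102 CPM and with STAT6 siRNA at 300 and 107 CPM. KIFC1, a minus-end spindle motor, stood at 56.1 and 77.4 CPM in Hep3B and at 29.9 and 83.9 CPM in the knockout. With scramble siRNA KIFC1 stood at 180 and 104 CPM and with STAT6 siRNA at 171 and 95.1 CPM.

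KIF2C, which takes apart microtubule ends at kinetochores, stood at 32.8 and 70.2 CPM in Hep3B and at 14.4 and 48.6 CPM in the knockout. KIF18B, which limits astral microtubules, stood at 29.1 and 55.4 CPM and at 17.8 and 41.6 CPM. KIF20A, a motor of cytokinesis, stood at 10.9 and 24.98 CPM and at 15.7 and 37.9 CPM. In each of these 5 kinesins the second library of both conditions was the higher, and the groups overlapped. With scramble siRNA these last 3 stood at 113 and 66.1 CPM (KIF2C), at 92.8 and 62.0 CPM (KIF18B) and at 78.3 and 43.0 CPM (KIF20A). With STAT6 siRNA they stood at 94.2 and 70.1 CPM (KIF2C), at 87.2 and 59.7 CPM (KIF18B) and at 53.7 and 43.0 CPM (KIF20A). There the libraries numbered 1 were the higher.

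Library 2 was above library 1 for 13 of 13 mitotic kinesins in Hep3B and for 11 of 13 in the knockout, and for 6 of 13 cargo transport kinesins in each. The list of 25 spindle partners holds genes such as TPX2 and AURKA that work beside these motors. It also holds CENPE, a mitotic kinesin whose symbol lies outside the rule for the family. Of these 25 genes, 24 were higher in library 2 in Hep3B and 23 in the knockout. Their summed level was 981 and 1588 CPM in Hep3B and 753 and 1537 CPM in the knockout. In bulk RNA fewer dividing cells and less RNA per cell cannot be told apart. KIF11 (Eg5, which separates the spindle poles), KIF4A, KIF14, KIF15, KIF18A, KIF20B and KIF23 were also tested and did not pass, with mean levels between 3.10 and 34.6 CPM. KIF4B is a near-identical copy of KIF4A, so its mean of 2.996 CPM is uncertain.

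The other kinesins held 2 of the 3 members that DESeq2 called. KIFC2, a C-terminal motor best known from neurons, stood at 8.69 and 4.11 CPM in Hep3B and at 43.7 and 20.1 CPM in the knockout, without overlap. It was 5.21-fold higher (log2 fold change 2.38, SE 0.57, edgeR adjusted p = 0.0516), which missed the threshold, and it passed in 6 of 13 alternatives. KIFC2 overlaps FOXH1 on the opposite strand, and whether the counting used strand is not given in the sources used here. With scramble siRNA KIFC2 stood at 16.8 and 11.1 CPM and with STAT6 siRNA at 20.0 and 10.0 CPM.

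KIF12, a kinesin known from kidney and liver epithelium, stood at 1.93 and 1.34 CPM in Hep3B and at 14.9 and 4.42 CPM in the knockout. It was 6.24-fold higher (log2 fold change 2.64, SE 0.71, edgeR adjusted p = 0.0710) and passed in 2 of 13 alternatives. With scramble siRNA KIF12 stood at 15.6 and 6.88 CPM and with STAT6 siRNA at 24.6 and 6.90 CPM, so its siRNA controls were as high as its knockout libraries. The hepatocyte markers moved with the knockout too: 4 of 11 passed as higher, beside 5.89% of all genes passing in either direction. For 10 of 11 both knockout libraries lay above both Hep3B libraries, beside 30.7% of all genes. The exception, AFP, stood at 137 and 28.7 CPM in Hep3B and at 65.8 and 27.9 CPM in the knockout. The marker sums, with ALB as the largest part, were 17100 and 12621 CPM in Hep3B and 50027 and 30987 CPM in the knockout. The part of these markers in the KIF12 values was not tested.

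KIFC3, a minus-end motor of epithelial junctions, stood at 125 and 22.4 CPM in Hep3B and at 63.0 and 78.6 CPM in the knockout, inside the wide Hep3B range. With scramble siRNA it stood at 82.7 and 73.8 CPM and with STAT6 siRNA at 118 and 61.7 CPM. KIF21A, which restrains microtubule growth at the cell edge, stood at 70.8 and 112 CPM in Hep3B and at 78.9 and 37.5 CPM in the knockout. With scramble siRNA it stood at 9.47 and 44.0 CPM and with STAT6 siRNA at 9.48 and 31.8 CPM, the libraries numbered 1 being the lowest of all. KIF2A, a microtubule-shortening kinesin, stood at 38.6 and 56.9 CPM in Hep3B and at 27.1 and 28.1 CPM in the knockout, without overlap and without passing the test. With scramble siRNA KIF2A stood at 9.90 and 28.5 CPM and with STAT6 siRNA at 9.23 and 30.4 CPM. KIF21B stood at 18.8 and 6.54 CPM in Hep3B, 13.9 and 18.3 in the knockout, 29.9 and 24.1 with scramble siRNA and 35.8 and 25.6 with STAT6 siRNA.

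KIF7 (a regulator of Hedgehog signalling at the cilium), KIF9, KIF24, KIF26B and KIF27 were tested and did not pass, with mean levels between 1.60 and 11.2 CPM. KIF9 overlaps an antisense gene, KIF9-AS1. KIF6 and KIF26A had at most 10 counts in any library and were not tested. KIF2B, KIF19 and KIF25 had no row among the deposited counts and could not be analysed.

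In the siRNA experiment 0 of 35 tested kinesins passed, with edgeR and with DESeq2, and 0 of 35 had an unadjusted p below 0.05. Of all 13554 genes edgeR called 0% and DESeq2 0%, and 0.103% had an unadjusted p below 0.05, so the comparison had few calls for any gene. Both STAT6 siRNA libraries lay below both scramble libraries for 2 of 35 kinesins (KIF17 and KIF9) and above for 0, beside 5.39% and 2.68% of all genes. The median log2 fold change was −0.14 for the cargo transport, −0.15 for the mitotic and 0.06 for the other kinesins, against −0.03 for all genes. With single libraries left out the medians of the cargo transport and mitotic kinesins turned sign, to 0.56 and 0.65 without scramble library 2. Between the 2 experiments the effects on 0 of the 36 kinesins other than KIF1A differed at an adjusted p of 0.05 with edgeR or DESeq2, beside 0.0683% and 1.04% of all genes. At an unadjusted p of 0.05 the effects on 2 of 36 differed, KIFC2 and KIF5C, beside 6.31% of all genes. KIF5C had 4 to 12 counts per siRNA library and entered this contrast through the knockout experiment alone. No siRNA effect on KIF5C could be tested, so its difference is not read as a result.

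**Figure D3:**
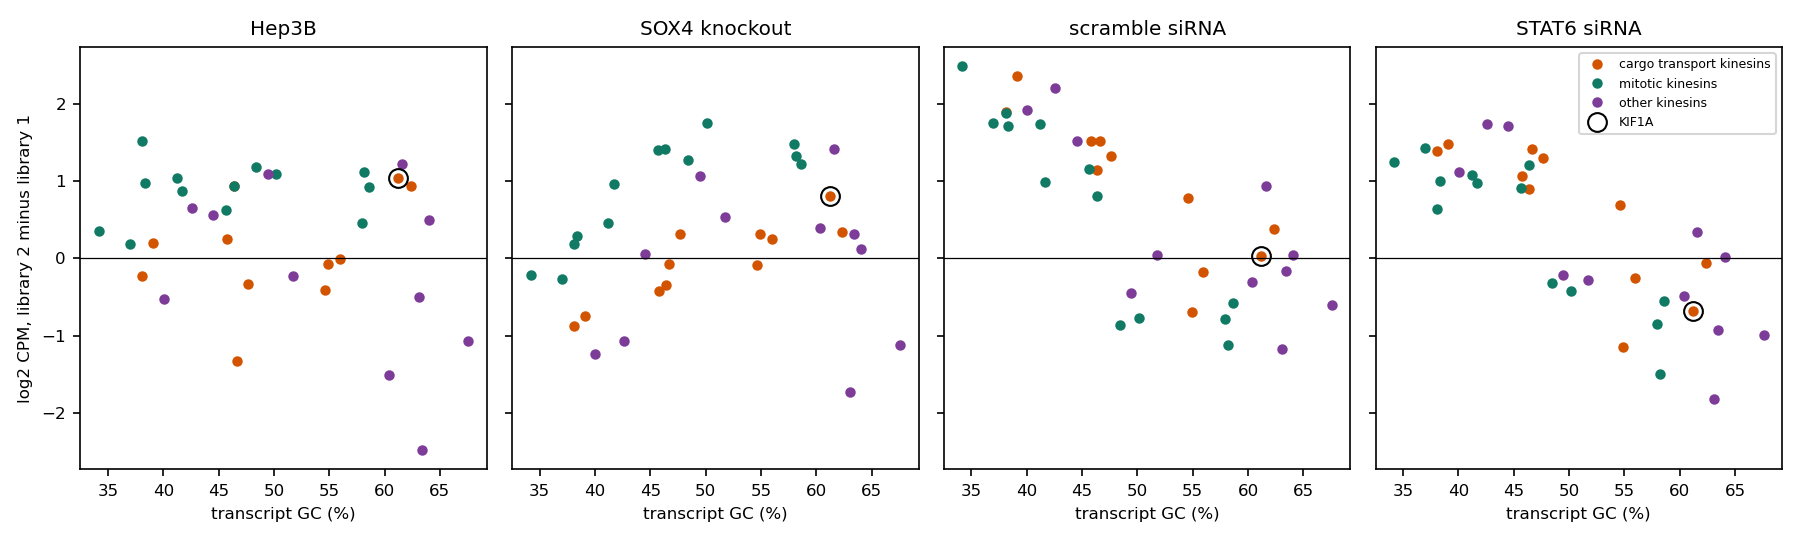
Difference in log2 CPM between library 2 and library 1 of each condition against the GC content of the transcripts, for the 35 kinesins tested throughout, coloured by role and with KIF1A ringed. In both siRNA conditions GC-poor kinesins are higher in library 2 and GC-rich ones lower, with a Spearman's rho of −0.80 and −0.78.

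The spread between the siRNA libraries followed the base composition of the kinesins. Over 35 kinesins, whose values come from the same pair of libraries, Spearman's rho between GC content and the difference of library 2 from library 1 was −0.80 for scramble siRNA and −0.78 for STAT6 siRNA. Over 13271 genes it was −0.76 and −0.82. In Hep3B it was −0.13 over the kinesins and in the knockout 0.27. KIF20B, at 34.2% GC, stood at 0.984 and 5.97 CPM with scramble siRNA, and KIF11, at 38.3% GC, at 6.52 and 21.6 CPM. KIF1A, at 61.2% GC, differed little between the scramble libraries.

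GC content also marked the step from the knockout experiment to the siRNA experiment. The difference of the scramble mean from the Hep3B mean had a rho of 0.78 with GC over the 35 kinesins and 0.66 over all genes. Kinesin levels in Hep3B and with scramble siRNA are thus side by side as values only, and transfection, table and base composition cannot be told apart. KIF1A stood at like levels in both.

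**Figure D4:**
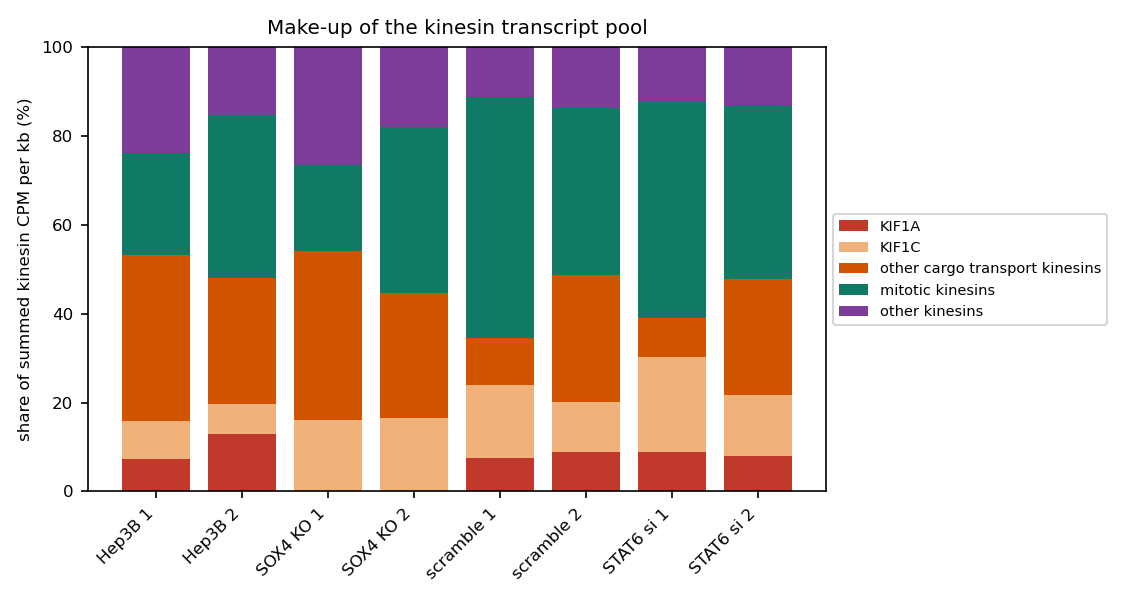
Share of the summed kinesin level (CPM per kb of transcript) taken by KIF1A, KIF1C, the rest of the cargo transport kinesins, the mitotic and the other kinesins in each library, in percent. KIF1A takes 7.35% to 12.8% outside the knockout and 0.132% and 0.194% in it.

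Per kb of transcript, KIF1A was 1 of the largest parts of the kinesin pool. It made up 7.35% and 12.8% of the summed kinesin CPM per kb in Hep3B, 0.132% and 0.194% in the knockout, 7.60% and 8.77% with scramble siRNA and 8.93% and 7.92% with STAT6 siRNA. The cargo transport kinesins together made up 53.1% and 48.1% in Hep3B and 54.2% and 44.6% in the knockout, which overlapped. KIF1C took 8.42% and 6.80% in Hep3B and 15.9% and 16.3% in the knockout. The share of the mitotic kinesins was 23.1% and 36.6% in Hep3B and 19.3% and 37.4% in the knockout. In the siRNA libraries it was 54.3% and 37.6% with scramble and 48.4% and 39.1% with STAT6 siRNA. The summed kinesin level was 343 and 404 CPM per kb in Hep3B and 282 and 342 in the knockout.

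Among the partners of the kinesins 1 gene passed the test in the knockout comparison, beside 5.89% of all genes, and the share with an unadjusted p below 0.05 was read beside 26.0% of all genes. Of 20 tested light chains and cargo adaptors 0 passed in the knockout comparison with edgeR, 4 had an unadjusted p below 0.05, and their median log2 fold change was 0.23. The list of dynein and dynactin, the motor of the opposite direction, also holds regulators and adaptors. Of its 23 tested genes 1 passed as higher, and their median was 0.03. It was ACTR1B, a part of the dynactin filament, just under the threshold (edgeR adjusted p = 0.0490). ACTR1B stood at 22.1 and 18.9 CPM in Hep3B and 54.9 and 56.8 CPM in the knockout. Of the 25 spindle partners 0 passed and 0 had an unadjusted p below 0.05, with a median of −0.12. In the siRNA comparison 0 of 19, 0 of 24 and 0 of 25 of these passed with edgeR, and 0 had an unadjusted p below 0.05.

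Of the other genes known from neurons, UCHL1 passed the test. Of 23 neuronal and secretory vesicle genes, 11 were tested in the knockout comparison, 1 passed as lower and 0 as higher, a share near the 5.89% of all genes, and 8 of 11 lay above zero with a median of 0.70. UCHL1, a deubiquitinase abundant in neurons, stood at 125 and 286 CPM in Hep3B and at 14.5 and 32.2 CPM in the knockout (log2 fold change −3.08, SE 0.56, edgeR adjusted p = 0.0279), and missed the threshold without knockout library 1 (adjusted p = 0.176) or library 2 (0.125). TUBB3, a neuronal beta-tubulin, stood at 83.3 and 86.2 CPM in Hep3B and at 18.3 and 38.0 CPM in the knockout, and did not pass. SNAP25, a vesicle fusion protein, stood at 11.2 and 3.72 CPM in Hep3B and at 1.59 and 2.53 CPM in the knockout, also without overlap and without passing. CPE, of the same list, went the other way, from 16.1 and 31.0 CPM in Hep3B to 56.5 and 48.4 CPM in the knockout, without passing. Of the 11, 5 had both knockout libraries above both Hep3B libraries and 3 had both below, beside 30.7% and 27.3% of all genes. SCG2 and CHGB, granins of dense-core vesicles, were below 1 CPM in every library of the knockout experiment and had no row in the siRNA experiment. Of the 10 stromal and blood markers 4 were tested and LUM, a matrix proteoglycan, passed as higher, from 0.573 and 0.694 CPM to 74.8 and 49.0 CPM. All 4 lay above zero, and CD68, a macrophage marker, stood at 39.5 and 26.3 CPM in Hep3B and at 63.8 and 83.5 CPM in the knockout without passing. The leukocyte marker PTPRC was at or below 0.199 CPM in every library of the knockout experiment and had no row in the siRNA experiment. The part of these markers in the kinesin values was not tested.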

How the data were processed

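RNA was isolated with TRIzol and sequenced after a stranded mRNA preparation. The expected counts deposited by the authors are estimates of the reads of each RefSeq transcript on hg38, without normalization, in a table for each experiment; STAR and Partek are named in the submitters' processing notes, and their versions and settings are not given in the sources used here. Rows with a sum under 10 were not in the tables. Counts were summed per gene and rounded, since the design assumed whole counts, and 19 gene names turned into dates were separated by chromosome. Each table was fitted with edgeR 4.0.16 in R 4.3.3 (filterByExpr, TMM, glmQLFit, glmQLFTest), and p-values were adjusted over all genes with the Benjamini-Hochberg method at 0.05. The SE of a log2 fold change is approximate: its size divided by the square root of the F statistic of glmQLFTest. Of the 39 kinesins 37 passed the filter on low counts in the knockout experiment and 35 in the siRNA experiment. The difference of the effects was a contrast over all 8 libraries. Levels per kb used transcript lengths from GENCODE. DESeq2 1.42.0, other scaling factors, other filters, GC and length offsets, a replicate block and leaving out each library were tried as alternatives, and the test was tried on simulated counts. Values were given per library for KIF1A, for any kinesin called, and for the 5 with the highest mean CPM of each role group, and KIF1B, KIF3C, KIF5A, KIF5B, KIF5C and KIF12 were added after their values were seen. The members and lists were chosen with earlier results of these data known. Precision is limited by 2 libraries per condition.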

Additional observations from a re-analysis of the deposited data

Results flagged for a closer look

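The effect on KIF1A differed between the 2 experiments: its log2 fold change in the libraries labelled SOX4 knockout lay below that with STAT6 siRNA by a difference of −6.41 (SE 0.82). Because KIF1A was chosen for its fall in the knockout, this difference is a description. Over 16 alternatives it ranged from −6.87 to −5.79.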

How the results depend on the processing

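With 2 libraries per condition, calls near the threshold depended on the settings. The count of kinesins called in the knockout comparison without KIF1A rose from 0 to 2 with median-of-ratios factors, 1 with upper-quartile factors, 3 with DESeq2, 1 with at least 10 counts in every library and 1 with the replicate block, and lay between 0 and 4 with single libraries left out. It stayed at 0 without a filter and with GC and length offsets, with or without the block. The count was 0 in the siRNA comparison under all 13 alternatives and 0 for the difference under all 16. KIF1A's value in the knockout kept its sign under all 13 alternatives. The median of the cargo transport kinesins in the knockout, here with KIF1A included, was 0.16, against 0.18 without KIF1A. With KIF1A included it moved to −0.013 with GC and length offsets, and with single libraries left out it ran from −0.036 to 0.20. That of the other kinesins moved from −0.012 to −0.32 with the offsets and ranged from −0.36 to 0.13. In the siRNA comparison the median of the other kinesins moved from 0.06 to 0.17 with median-of-ratios factors and with DESeq2, to −0.081 with GC and length offsets and to −0.10 with the replicate block and offsets, and ran from −0.074 to 0.11 with single libraries left out. That of the mitotic kinesins ranged from −0.68 to 0.65 and that of the cargo transport kinesins from −0.74 to 0.56. In the knockout the mitotic median of −0.28 ran from −0.67 to 0.16 with single libraries left out and was −0.037 with GC and length offsets.

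In the siRNA comparison, where no gene passed, the sign of KIF1A reversed to −0.20 with GC and length offsets and −0.20 with the replicate block added, and leaving out each library gave −0.21 to 0.39. KIFC2 reversed to −0.27 with both and ranged from −0.48 to 0.46, KIF12 from −0.70 to 1.22 and KIF1C from −0.19 to 0.91. The log2 fold change of SOX4 in the knockout comparison ran from −1.42 to 0.11 with single libraries left out. The causes of these moves were not tested.

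Over all genes, the count of 849 in the knockout comparison was 2160 with DESeq2, 518 with at least 10 counts in every library, 526 with the offsets, 170 with the block and offsets and 21 to 2298 with each library left out. The 0 of the siRNA comparison became 62 with the replicate block and 375 with the block and offsets, STAT6 among them both times and no kinesin. The 10 of the difference became 5 with upper-quartile factors, 146 with DESeq2, 1 with at least 10 counts, 102 with the block, 51 with the offsets, 54 with both, and 1 to 119 with each library left out. The labels do not say what a library number shares, and the deviations of like-numbered libraries correlated at −0.08 in the knockout experiment and 0.87 in the siRNA experiment. The block is therefore given only here. Where an arm held 1 library, it was assumed to vary like the others.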
